A study of Mus musculus with 4 samples.

Results

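The genes described here are 42 genes of the extracellular matrix: laminin subunits, collagens, the linkers of basement membranes, matrix-binding glycoproteins and enzymes that process collagen. They were chosen by name, as probe sets whose platform annotation gives exactly 1 gene, and they make up 42 of the 18193 genes on the array that are named this way, with 87 of 34945 probe sets. RNA was measured on 4 Affymetrix arrays, 2 per group, from neuroepithelial cells of the telencephalon of ICR mouse embryos. The E14.5 group is cells taken at embryonic day 14.5 and grown for 4 days, and the E11.5 group is cells taken at embryonic day 11.5 and grown for 1 day. Both groups grew in the same medium with 10 ng/ml basic FGF, on dishes coated with polyornithine and fibronectin, so matrix protein was supplied to both from outside. Embryonic age and time in culture differ together between the groups and cannot be told apart.

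A basement membrane is a thin sheet of matrix under epithelia and around vessels. Laminins, trimers of an alpha, a beta and a gamma chain, assemble into one network and collagen IV into another, and nidogens and the proteoglycans perlecan and agrin connect them. In the developing forebrain the endfeet of neural precursors are anchored to such a sheet beneath the meninges, and cells of the meninges and vessels supply much of its collagen. Fibrillar collagens, by contrast, form the ropes of connective tissue and are best known from fibroblasts, cartilage and bone.

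Of the 42 genes, 40 had a probe set bright enough to be tested, at a mean signal of at least 27.3. The others, Lama4 and Lox, fell under that limit. In the limma fit across all probe sets with Benjamini-Hochberg adjustment, 5 of the 40 had a higher signal at E14.5, 9 a lower one, and 26 missed the threshold of an adjusted p of 0.05. Over all 12952 genes tested, 14.3% were higher and 13.6% lower, together 27.8%, against 12.5% higher, 22.5% lower and 35% in all among the matrix genes. A call together with a change of at least 2-fold was reached by 10 of them, beside 12.7% of all genes. The median of the log2 differences (E14.5 minus E11.5) was -0.19 for the 40 matrix genes and 0.03 for all genes, and the sign for the matrix genes rested on 1 array: without E11.5 replicate 1 the median was 0.038. The 2 arrays of a group lay entirely above or below those of the other for 27 of the 40 genes, 11 above and 16 below. Over all genes the share was 65.6%, with 34.6% above and 31% below, so the lack of overlap is common. Among these 40 genes rises were about as frequent as on the whole array and falls more frequent, by few genes. Of the 9 falls, Col2a1 and Spock1 reached the limit for testing through their E11.5 signals. In a wider list of matrix genes, described below, 21.1% were higher and 8.77% lower. The differences between these shares were not tested. In several of the groups described below members were called in opposite directions.

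**Figure D1:**
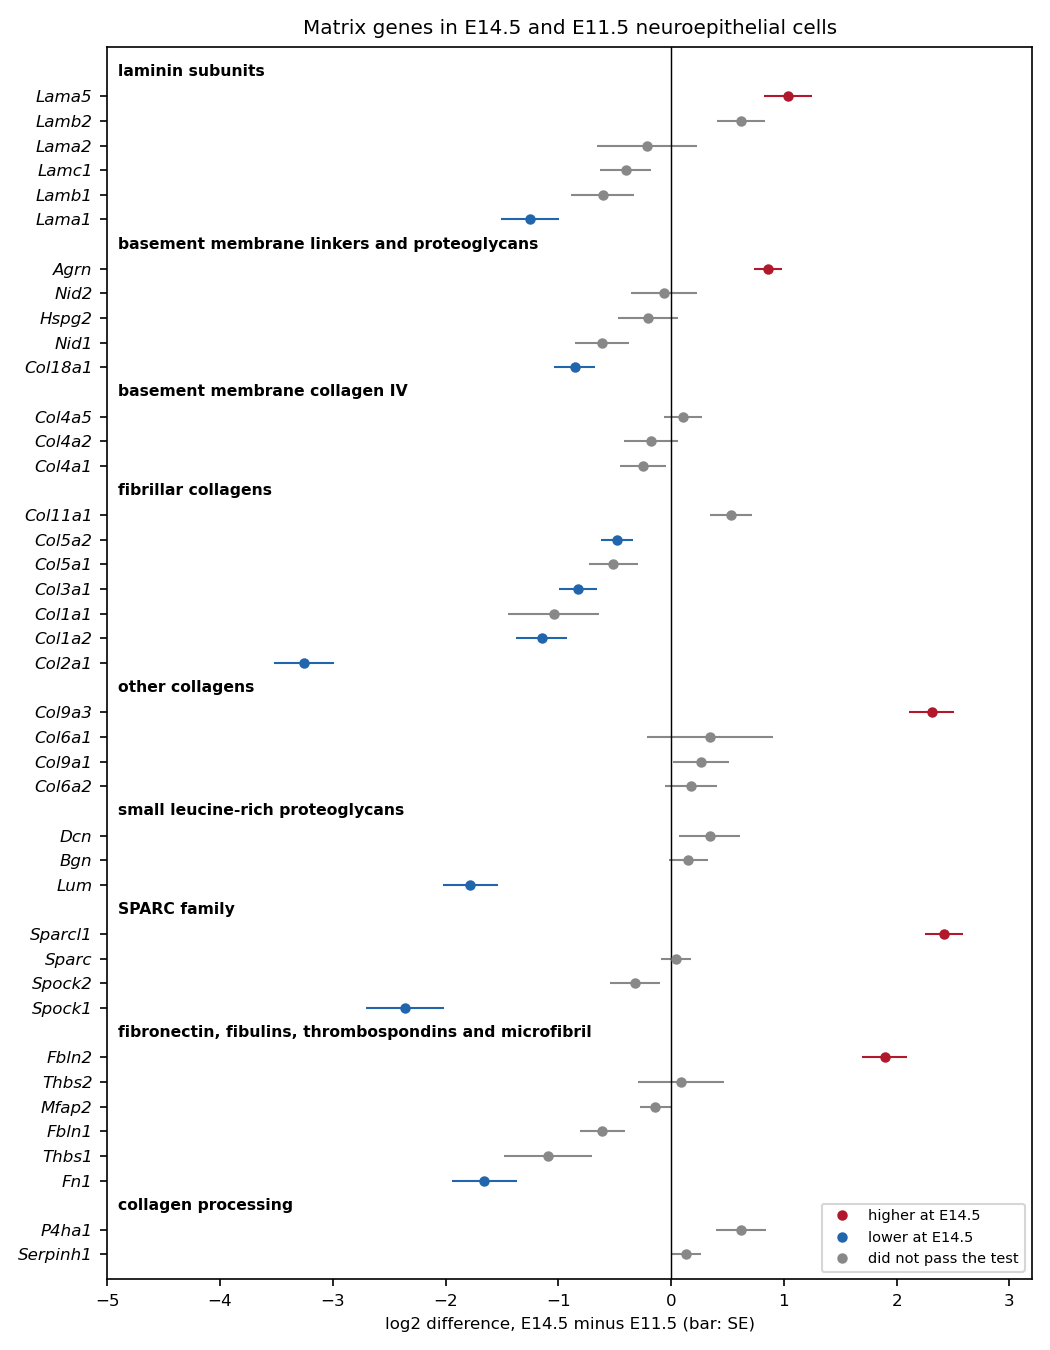
Log2 difference in signal, E14.5 minus E11.5, on the horizontal axis for the 40 tested matrix genes, grouped by role. Points are the brightest probe set of each gene, and colour gives the outcome of the limma test. Bars are limma's moderated standard errors, which draw on the variance of all tested probe sets. The 5 genes that were higher (red) and the 9 that were lower (blue) are spread over 7 of the 9 groups, and Sparcl1 and Col2a1 mark the ends of the range.

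The trimmed mean of deposited signals ran from 103 to 252 over the 4 arrays, lowest in the E14.5 group, and every signal given here was scaled to a common trimmed mean of 174, so a rise or a fall is always set against the overall brightness of an array. Log2 signals correlated across probe sets at 0.969 between the E14.5 arrays and 0.975 between the E11.5 arrays. All 11 neural progenitor markers checked were bright enough to test; 5 were higher, 2 lower and 4 did not pass. Sox2, for example, was higher, with 4015 and 4272 at E14.5 against 2887 and 2572 at E11.5, and Pax6 was lower, with 323 and 243 at E14.5 against 503 and 511 at E11.5. Summed signals of marker lists separated the groups for other cells of the brain. Of the tested markers, 7 of 8 for astrocytes, 6 of 6 for oligodendrocyte precursors and 9 of 10 for microglia and macrophages were higher. Of 10 neuron markers 9 were lower. Map2, a bright neuron marker with 2825 and 2924 at E14.5 and 2352 and 2581 at E11.5, did not pass. The astrocyte marker Gja1 leaned lower (-0.60) without passing. The sums were 16810 and 12004 at E14.5 against 4700 and 4914 at E11.5 for astrocytes. For oligodendrocyte precursors they were 16720 and 19049 at E14.5 against 860 and 622 at E11.5. For microglia and macrophages they were 2082 and 1923 at E14.5 against 276 and 408 at E11.5, and for neurons 5312 and 5193 at E14.5 against 15753 and 16590 at E11.5. The sums of 6 choroid plexus markers were 221 and 175 at E14.5 against 563 and 485 at E11.5. Of these markers 4 were tested and only Otx2 passed, as lower. Otx2 alone had 70.3 and 65.4 at E14.5 against 375 and 280 at E11.5, most of the fall of this sum. The part of these cells in the results that follow was not tested, and in such mixed samples fewer cells of a type and less RNA per cell cannot be told apart.

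Of the laminin alpha chains, 1 was called higher and 1 lower. Lama5, the alpha chain of many epithelial and vascular basement membranes, had signals of 173 and 179 at E14.5 against 69.4 and 89.8 at E11.5. The groups lay apart, with a log2 difference of 1.04 ± 0.21 (limma adjusted p = 0.0058). Here and below, ± after a difference is limma's moderated SE, with n = 2 arrays in each group. It draws on the variance of all tested probe sets, so it is not the spread of 1 gene's arrays alone. Another probe set of Lama5 was higher too, by 0.84 ± 0.23. Lama1, the alpha chain of the earliest embryonic basement membranes, had 69.0 and 42.2 at E14.5 against 149 and 145 at E11.5. It was lower by 1.25 on the log2 scale with an SE of 0.25 (-1.25; adjusted p = 0.0055), and its E11.5 arrays differed far less from each other than from either E14.5 array. Lama2, the alpha chain of muscle and Schwann cells, had 16.1 and 43.8 at E14.5 and 49.7 and 22.4 at E11.5. Its arrays differed 2.73-fold within the E14.5 group and 2.22-fold within the E11.5 group, more than the groups differed from each other. Lama4, a chain of vessel walls, was not tested; its signals were 7.82 and 5.65 at E14.5 and 16.5 and 20.5 at E11.5, near or under the constant of 12.8 that was added to every signal before logarithms were taken.

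The beta and gamma chains did not pass the test at their brightest probe sets. Lamb2, the later-appearing beta chain of mature basement membranes, had 151 and 135 at E14.5 and 93.7 and 83.3 at E11.5, and its groups did not overlap (0.62 ± 0.21, adjusted p = 0.057). Lamb1, the beta chain of most embryonic laminins, had 82.6 and 50.2 at E14.5 and 123 and 89.8 at E11.5 (-0.61 ± 0.28, adjusted p = 0.15). Its E14.5 arrays were both below its E11.5 arrays at each of its 3 tested probe sets. A dimmer probe set of Lamb1 had 22.4 and 13.3 at E14.5 and 48.7 and 55.5 at E11.5. It passed as lower (-1.10 ± 0.35, adjusted p = 0.044). Its E14.5 signals lay under the limit for testing, which it reached through its E11.5 signals. Lamc1, the gamma chain shared by most laminins, had 262 and 161 at E14.5 and 254 and 300 at E11.5, with overlapping groups (-0.40 ± 0.23). Of these 3 genes, Lamb2 passed after quantile normalization (0.67, adjusted p = 0.042), and without E14.5 replicate 1 both Lamb1 (-0.91) and Lamc1 (-0.73) passed as lower, while without E14.5 replicate 2 they were at -0.31 and -0.072.

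Collagen IV, the network-forming collagen of basement membranes, showed no difference past the threshold in any of its 3 chains among the 42 genes. Of its other chains, Col4a6 was tested and had 83.6 and 13.3 at E14.5 and 110 and 82.3 at E11.5, with a 6.28-fold gap inside the E14.5 group (-1.10 ± 0.50, adjusted p = 0.14). Col4a1 had 280 and 268 at E14.5 and 404 and 266 at E11.5 (-0.25 ± 0.20). Col4a2, which joins with Col4a1 in the common trimer of collagen IV, had 121 and 137 at E14.5 and 187 and 115 at E11.5 (-0.18 ± 0.24). At these probe sets the E11.5 replicate 1 array was the highest of the 4 for both genes. It did not stand out at the other tested probe set of Col4a1, which had 167 and 184 at E14.5 and 185 and 172 at E11.5 (-0.023 ± 0.18). Without that array the differences at the brightest probe sets had the opposite sign, 0.038 for Col4a1 and 0.15 for Col4a2. Col4a5, an X-linked chain of a different trimer, had 331 and 275 at E14.5 and 292 and 268 at E11.5 (0.10 ± 0.17). Another probe set of Col4a5 gave -0.21 ± 0.23. Col4a1 and Col4a2 are neighbouring genes read from opposite strands, and are known to be transcribed from a shared promoter. Their promoter windows, 250 bases before to 50 after the annotated start, are shown because they overlap. They are given from RefSeq on build GRCm38.p6 as chr8:11312777-11313076 on the minus strand for Col4a1 and chr8:11312555-11312854 on the plus strand for Col4a2, 5′ to 3′. The capitals mark the 78 bases that lie in both windows, each being the reverse complement of the other, and the annotated starts are 21 bases apart.
Col4a1: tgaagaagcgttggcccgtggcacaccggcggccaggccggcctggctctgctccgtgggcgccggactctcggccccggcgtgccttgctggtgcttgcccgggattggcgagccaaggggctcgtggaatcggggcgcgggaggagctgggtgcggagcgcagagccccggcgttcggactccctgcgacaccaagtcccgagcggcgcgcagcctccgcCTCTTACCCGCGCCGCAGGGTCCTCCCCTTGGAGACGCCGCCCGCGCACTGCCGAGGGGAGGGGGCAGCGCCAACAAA
Col4a2: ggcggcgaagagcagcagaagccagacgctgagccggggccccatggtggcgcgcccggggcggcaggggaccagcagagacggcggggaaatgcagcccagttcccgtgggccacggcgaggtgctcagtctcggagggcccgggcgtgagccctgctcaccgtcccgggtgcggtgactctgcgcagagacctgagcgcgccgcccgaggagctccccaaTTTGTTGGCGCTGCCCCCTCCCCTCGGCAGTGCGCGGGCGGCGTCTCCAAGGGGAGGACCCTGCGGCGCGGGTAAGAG
Neither window holds the motif TATAAA on either strand, which 13.6% of all 32851 promoter windows in the table hold. CCAAT occurs once in each, and is held by 37.4% of all windows. GGGCGG occurs 1 time in the Col4a1 window and 3 times in that of Col4a2, and is held by 35.7% of all windows. These matches are a description of the letters and not of factor binding.

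The genes that link or coat the laminin and collagen networks also divided. Agrn encodes agrin, a heparan sulfate proteoglycan that organises the neuromuscular synapse and lies in brain basement membranes. It had 1770 and 1850 at E14.5 against 962 and 1018 at E11.5, a rise of 0.86 ± 0.12 (adjusted p = 0.00075), with little spread inside either group. The rise was seen at its bright probe set only. A dim probe set of Agrn, at 31.6 and 16.9 at E14.5 and 28.6 and 46.1 at E11.5, did not pass (-0.44 ± 0.38), and the average of both probe sets gave 0.21 (adjusted p = 0.39). Col18a1, a basement membrane collagen that is also a heparan sulfate proteoglycan and the source of endostatin, had 148 and 137 at E14.5 against 294 and 246 at E11.5. It fell by 0.86 on the log2 scale (-0.86 ± 0.18, adjusted p = 0.0070), and by 0.80 at its other tested probe set. Nid1, a nidogen that bridges laminin and collagen IV, had 65.9 and 54.6 at E14.5 and 91.3 and 106 at E11.5, without overlap but short of the threshold (-0.61 ± 0.24, adjusted p = 0.098). The other nidogen, Nid2, had 39.5 and 52.2 at E14.5 and 45.8 and 50.5 at E11.5, which overlap. Hspg2, which encodes perlecan, had 101 and 157 at E14.5 and 184 and 118 at E11.5, and its arrays differed as much within each group as between them (-0.21 ± 0.27).

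Fibrillar collagens contributed 4 of the 9 falls: of the 7 among the 42 genes, 4 passed as lower, 3 missed the threshold and none passed as higher. Of all genes tested, 13.6% were lower. The fibrillar collagens Col5a3 (0.56 ± 0.25) and Col27a1 (-0.012 ± 0.22), from the wider list described below, did not pass. Col2a1, the collagen of cartilage that is also made by early neuroepithelium, had the largest fall of all 40 genes. Its signals were 12.4 and 13.6 at E14.5 against 196 and 277 at E11.5, a log2 difference of -3.25 ± 0.27 (adjusted p = 2.4e-05). The E14.5 signals lie beside the added constant of 12.8 and under the limit of 27.3, which Col2a1 passed through its E11.5 signals. The size of the difference therefore depends on the constant, from -2.32 to -3.87 over the constants tried, and no fold is given. Col1a2, a chain of collagen I, had 117 and 76.2 at E14.5 against 225 and 227 at E11.5 (-1.15 ± 0.22, adjusted p = 0.0043), and a second probe set fell by 1.47. Its partner chain Col1a1 had 104 and 28.4 at E14.5 and 134 and 126 at E11.5 (-1.04 ± 0.41, adjusted p = 0.092). The E14.5 arrays of Col1a1 differed 3.67-fold, and a fall was called when E11.5 replicate 1 (-1.001), E11.5 replicate 2 (-1.08) or E14.5 replicate 1 (-1.80) was left out. Without E14.5 replicate 2 the difference was -0.29 (adjusted p = 0.52), so its size rests on that array. A second probe set of Col1a1 gave -0.083 ± 0.27.

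Col3a1, a fibrillar collagen of soft tissues and vessel walls, had 252 and 317 at E14.5 against 470 and 555 at E11.5 (-0.83 ± 0.17, adjusted p = 0.0061), with a second probe set lower by 1.08. Without the trend of variance on signal its adjusted p was 0.0502. Col5a2, which helps to start collagen fibrils and lies next to Col3a1 in the genome, had 495 and 443 at E14.5 against 653 and 660 at E11.5 (-0.48 ± 0.14, adjusted p = 0.034). This call was lost under more alternatives than any other of the 14. A second probe set gave 0.038 ± 0.18, and leaving out E11.5 replicate 1 (-0.48), E11.5 replicate 2 (-0.47) or E14.5 replicate 2 (-0.40) ended the call. Its partner Col5a1 had 187 and 176 at E14.5 and 331 and 210 at E11.5, and did not pass (-0.51 ± 0.22) except without E11.5 replicate 2 (-0.83). Without E11.5 replicate 1 it was at -0.20. Col11a1, a minor chain of cartilage fibrils, was the only one of these 7 with a positive difference. It had 204 and 219 at E14.5 and 130 and 155 at E11.5 (0.53 ± 0.19, adjusted p = 0.065), and it passed after quantile normalization (0.59, adjusted p = 0.046). Col1a2 and Col3a1 were the fibrillar collagens whose falls were called at 2 probe sets each, and their promoter windows are printed for that reason. They are chr6:4505368-4505667 for Col1a2 and chr1:45311288-45311587 for Col3a1, both on the plus strand of GRCm38.p6 from RefSeq, 5′ to 3′, and the capitals mark matches of TATAAA and CCAAT on either strand.
Col1a2: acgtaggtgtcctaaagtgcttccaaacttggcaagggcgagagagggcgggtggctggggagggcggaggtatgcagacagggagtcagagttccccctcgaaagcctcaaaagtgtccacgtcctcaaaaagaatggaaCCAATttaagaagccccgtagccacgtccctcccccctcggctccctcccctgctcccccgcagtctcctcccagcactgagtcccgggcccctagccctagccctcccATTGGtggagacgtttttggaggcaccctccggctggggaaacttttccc
Col3a1: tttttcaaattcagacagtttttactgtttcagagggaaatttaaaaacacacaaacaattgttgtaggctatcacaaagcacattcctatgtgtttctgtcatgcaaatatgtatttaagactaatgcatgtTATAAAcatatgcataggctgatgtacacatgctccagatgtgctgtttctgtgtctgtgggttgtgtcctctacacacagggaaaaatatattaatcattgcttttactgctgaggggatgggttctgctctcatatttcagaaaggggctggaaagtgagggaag
The Col1a2 window holds 2 matches of CCAAT, 2 of GGGCGG and none of TATAAA. The Col3a1 window holds 1 match of TATAAA, which begins 117 bases before the annotated start, and none of the other motifs, so the windows share none of the 3 motifs.

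The remaining collagens of the 42 genes were those of filaments and of fibril surfaces, and all 4 had differences above 0. Col9a3, a chain of the cartilage collagen IX, had 316 and 274 at E14.5 against 49.98 and 48.3 at E11.5. The mean was 6.01-fold higher (2.31 ± 0.20, adjusted p = 3.5e-05), and a second probe set rose by 1.22 ± 0.27. Col9a1, another chain of collagen IX, had 78.4 and 105 at E14.5 and 67.3 and 79.9 at E11.5 at its brightest probe set, which did not pass (0.26 ± 0.25). A second probe set of Col9a1, with 133 and 84.9 at E14.5 against 46.7 and 29.9 at E11.5, did pass as higher (1.24 ± 0.30, adjusted p = 0.013). That probe set lay just under the first in mean signal and became the brightest when E11.5 replicate 2 was left out, which gave a called difference of 1.001. Collagen IX decorates fibrils of collagen II in cartilage; here neither Col9a1 nor Col9a3 was lower, while Col2a1 was.

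Col6a1 and Col6a2, neighbouring genes for chains of the microfibrillar collagen VI, gave no call. Col6a1 had 243 and 40.1 at E14.5 and 88.0 and 70.3 at E11.5, a 6.05-fold gap inside the E14.5 group that was the widest of the 42 genes in either group. Its direction depends on which E14.5 array is used, at -0.79 without replicate 1 and 1.48, past the threshold, without replicate 2. Col6a2 had 279 and 173 at E14.5 and 178 and 210 at E11.5 (0.18 ± 0.23), and -0.15 without E14.5 replicate 1. A second probe set of Col6a2 gave -0.042 ± 0.19.

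Small leucine-rich proteoglycans bind collagen fibrils and set their width. Lum encodes lumican, which had 55.0 and 40.2 at E14.5 against 220 and 169 at E11.5, a 4.09-fold lower mean (-1.78 ± 0.24, adjusted p = 0.00054). Dcn, the gene of decorin and the neighbour of Lum in the genome, did not go with it, at 59.6 and 65.0 at E14.5 and 42.6 and 50.6 at E11.5 (0.34 ± 0.27, adjusted p = 0.42). Bgn, which encodes biglycan, had 255 and 313 at E14.5 and 251 and 255 at E11.5 (0.15 ± 0.17), and its 2 other probe sets gave no difference past the threshold. Of 17 meningeal and fibroblast markers, which are other genes known from cells that make these collagens and proteoglycans, 9 were bright enough to test. Of these 9, Ptgds and Pdpn were higher, Foxp1 was lower and 6 did not pass, and no marker was listed at 0. The summed signal of all 17 was 2693 and 2172 on the E14.5 arrays against 1415 and 1372 on the E11.5 arrays. Of this, Ptgds and Pdpn alone gave means of 900.2 and 979 at E14.5 against 62.1 and 595 at E11.5. The rise of the sum therefore does not describe the other markers. Foxc1, a transcription factor of the meninges, had 42.6 and 41.8 at E14.5 and 75.2 and 56.6 at E11.5 and did not pass (adjusted p = 0.23). Prrx1, a transcription factor of mesenchyme, leaned the other way with 112 and 79.5 at E14.5 and 77.9 and 53.6 at E11.5, also without passing. Of the 9 tested markers, 3 (Ptgds, Pdpn and Prrx1) had differences above 0 and the others lay below, with a median of -0.21. The part of meningeal cells in the falls of collagens and Lum was not tested.

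Most endothelial markers were dim in both groups. Of 16 such markers 4 were tested, with Plvap and Ramp2 higher, Egfl7 lower and 1 short of the threshold. Their summed signal was 448 and 566 at E14.5 and 530 and 439 at E11.5, and Pecam1, Tie1 and Erg stayed below 12.8 on every array. Plvap had 15.8 and 4.29 at E11.5 and was tested through its E14.5 signals. Of the untested markers, Cdh5, Cldn5 and Emcn lay lower at E14.5 without overlap and Sox17 lay higher. Each of these had a mean under 12.8 in its lower group. Among 10 pericyte and smooth muscle markers 5 were tested, of which Notch3 was higher and 4 did not pass, with summed signals of 1616 and 1322 at E14.5 and 1314 and 1576 at E11.5. Notch3 and Acta2 were the bright ones of this list, Notch3 with 929 and 895 at E14.5 against 714 and 515 at E11.5.

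Of the 42 genes, those of the SPARC family held the largest rise in log2 difference, that of Sparcl1, and one of the largest falls. The rank of that rise depends on the measure. As a ratio of means Col9a3 rose more, at 6.01-fold. With an added constant of 3.2 the log2 difference was 2.51 for Col9a3 and 2.46 for Sparcl1. Sparcl1 encodes hevin, a matricellular protein of astrocytes that promotes synapse formation. It had 1551 and 1433 at E14.5 against 315 and 229 at E11.5, a 5.49-fold higher mean (2.42 ± 0.17, adjusted p = 8.1e-06). Sparc itself, a collagen-binding relative of hevin, was bright and level, with 1639 and 1413 at E14.5 and 1525 and 1431 at E11.5. Its difference was 0.042 ± 0.13 with an adjusted p of 0.86, and its other probe sets gave 0.17 and 0.030. Spock1, the gene of testican-1, a proteoglycan secreted by neurons, had 7.24 and 8.01 at E14.5 against 74.5 and 113 at E11.5. The fall was -2.36 ± 0.34 (adjusted p = 0.00084), with the E14.5 signals under the added constant, so that Spock1 too passed the limit through its E11.5 signals. Its difference ran from -1.44 to -3.13 over the constants tried. A second probe set of Spock1 was lower too, by 1.31, though its E14.5 signals of 9.67 and 25.09 also lay under the limit. That probe set became the brightest when E11.5 replicate 2 was left out, which gave -1.34 and no call. Spock2, of testican-2, had 188 and 277 at E14.5 and 335 and 248 at E11.5, which overlap (-0.32 ± 0.22).

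Fibronectin fell. Fn1 encodes this adhesive glycoprotein, to which cells bind through integrins, and it had 378 and 172 at E14.5 against 751 and 932 at E11.5. The mean was 3.06-fold lower (-1.66 ± 0.29, adjusted p = 0.0023) although the E14.5 arrays differed 2.20-fold between themselves. A dim second probe set of Fn1 went the same way without passing (-1.22 ± 0.42, adjusted p = 0.062). Of the fibulins, which bind fibronectin and elastic fibres, only Fbln2 passed at its brightest probe set. Fbln2 had 382 and 543 at E14.5 against 106 and 121 at E11.5, a 4.07-fold higher mean (1.89 ± 0.20, adjusted p = 0.00012). Fbln1 had 324 and 461 at E14.5 and 688 and 517 at E11.5, and lay just outside the threshold (-0.61 ± 0.20, adjusted p = 0.051). A dimmer probe set of Fbln1 passed as lower (-0.72 ± 0.23, adjusted p = 0.044), and the brightest passed with E11.5 replicate 2 (-0.81) or E14.5 replicate 2 (-0.86) left out. Without E11.5 replicate 1 it was at -0.41 and without E14.5 replicate 1 at -0.36. The third tested probe set of Fbln1 had 62.8 and 103 at E14.5 and 68.4 and 83.2 at E11.5, which overlap (0.086 ± 0.28). With the probe sets of Fbln1 averaged the difference was -0.42 (adjusted p = 0.13).

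Thrombospondins are secreted regulators of adhesion and, from astrocytes, of synapse formation. Thbs1 had 27.5 and 47.2 at E14.5 and 56.6 and 145 at E11.5 (-1.09 ± 0.39, adjusted p = 0.072). The E11.5 arrays of Thbs1 differed 2.56-fold. A second probe set had 28.6 and 13.6 at E14.5 against 53.3 and 177 at E11.5. It passed as lower (-1.76 ± 0.46, adjusted p = 0.020), but its E14.5 mean lay under the limit for testing. The first passed with E11.5 replicate 1 (-1.68) or E14.5 replicate 2 (-1.44) left out, but the difference was -0.497 (adjusted p = 0.54) without E11.5 replicate 2. Thbs2 had 63.1 and 31.5 at E14.5 and 58.9 and 28.8 at E11.5, so replicate 1 was about as far above replicate 2 in each group (0.087 ± 0.38). Mfap2, a microfibril protein, had 619 and 679 at E14.5 and 683 and 750 at E11.5 (-0.14 ± 0.14), while its second probe set leaned the other way (0.32 ± 0.18).

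Genes that process collagen were measured through 3 members. Serpinh1 encodes HSP47, the chaperone of procollagen in the endoplasmic reticulum, and had 1081 and 1089 at E14.5 and 1051 and 929 at E11.5 (0.13 ± 0.13, adjusted p = 0.52). P4ha1, a subunit of the prolyl hydroxylase that stabilises the collagen helix, had 197 and 146 at E14.5 and 120 and 93.6 at E11.5 (0.62 ± 0.22, adjusted p = 0.072). It passed as higher with E11.5 replicate 1 (0.78) or E14.5 replicate 2 (0.82) left out, and stood at 0.42 without E14.5 replicate 1. A second probe set of P4ha1, with 100 and 99.0 at E14.5 and 85.5 and 85.8 at E11.5, did not pass (0.19 ± 0.22). Lox, the lysyl oxidase that crosslinks collagen and elastin, was not tested, at 14.8 and 40.3 at E14.5 and 20.1 and 10.5 at E11.5.

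**Figure D2:**
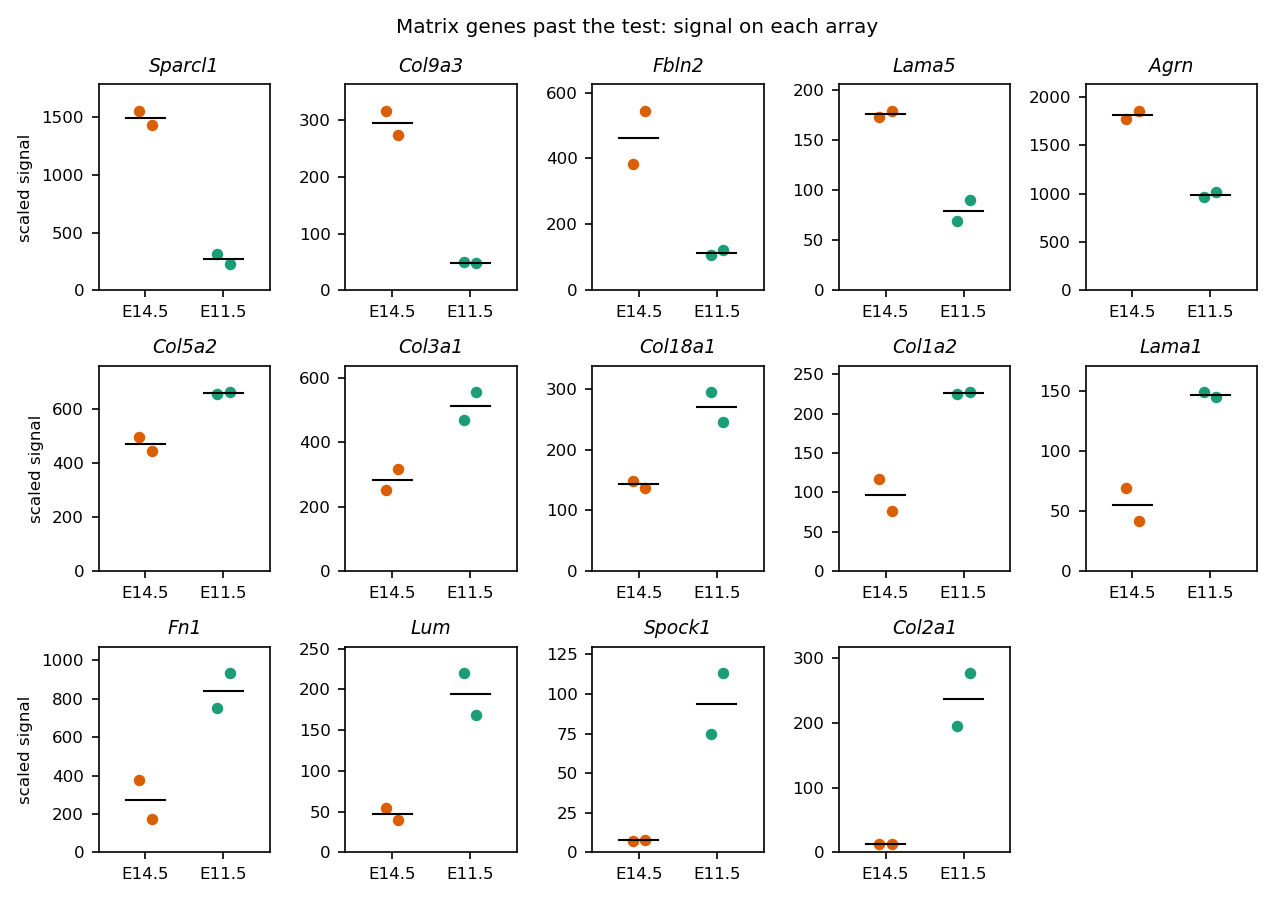
Scaled signal (vertical axis, linear, from 0) on each of the 4 arrays for the 14 matrix genes past the test, ordered from the largest rise to the largest fall; dots are arrays and lines are group means, with E14.5 at the left of each panel. In every panel the 2 arrays of one group lie apart from those of the other, and the widest gap inside a group is that of Fn1 at E14.5.

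Several genes were read by more than 1 probe set, which allows their differences to be compared. Of the 40 genes, 25 had more than 1 tested probe set, and in 18 of these all tested probe sets had the same sign. Of the 14 called genes 9 had another tested probe set, and for 6 of them (Lama5, Col18a1, Col1a2, Col3a1, Col9a3 and Spock1) it was called in the same direction. For Agrn, Col5a2 and Fn1 it was not called. The other 5, Lama1, Col2a1, Lum, Sparcl1 and Fbln2, rest on 1 tested probe set each. For 4 genes, Lamb1, Col9a1, Fbln1 and Thbs1, the brightest probe set did not pass while another did, and no gene had calls in opposite directions. Of these other called probe sets, those of Spock1, Lamb1 and Thbs1 had E14.5 means under the limit for testing.

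**Figure D3:**
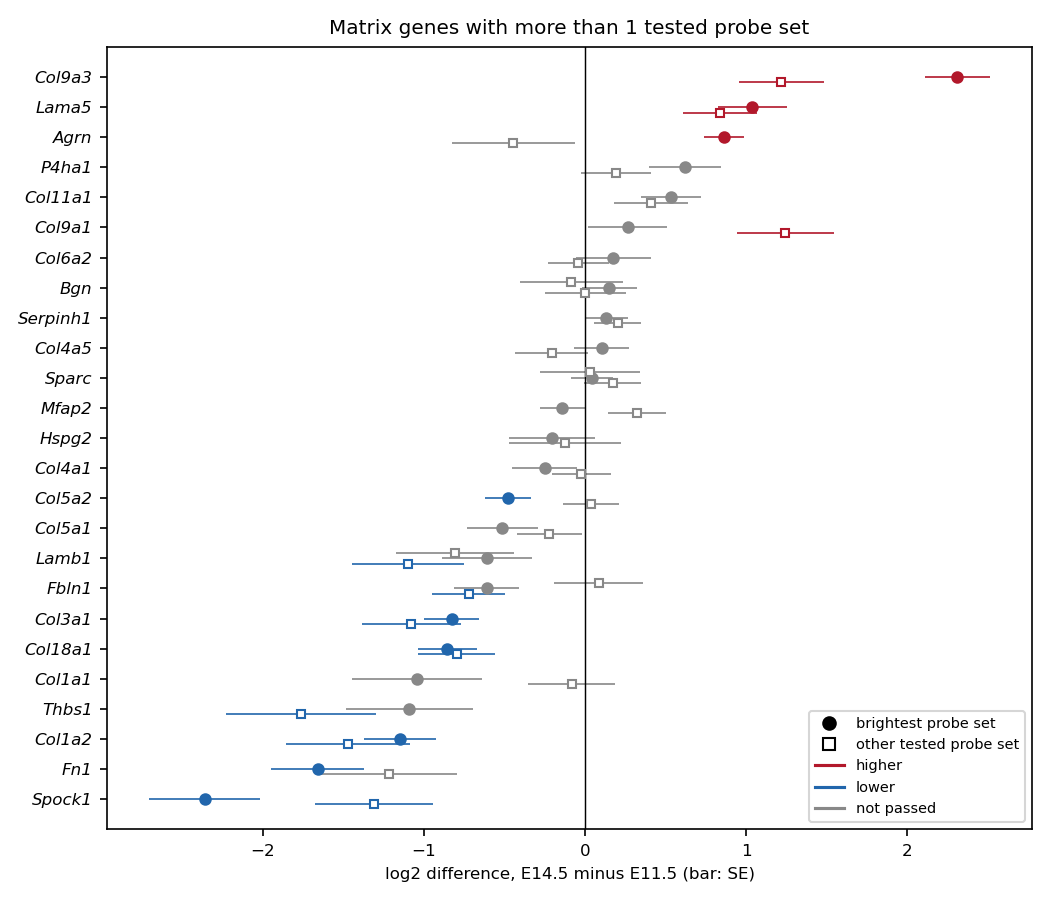
Log2 difference, E14.5 minus E11.5, of every tested probe set of the 25 matrix genes with more than 1. Filled circles are the brightest probe set of a gene and open squares the others. Bars are limma's moderated standard errors and colour gives the outcome of the test. Col9a3, Spock1 and Agrn show the widest gaps between probe sets among called genes, and Col9a1 and Thbs1 pass at the other probe set only.

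A wider list of matrix genes, drawn up with results of these data already known, was set beside the 42. Of its 96 genes, 90 had a probe set and 57 were tested. Of these, 12 passed as higher, 5 as lower and 40 in neither direction, or 29.8% called beside 27.8% of all genes. The shares were 21.1% higher and 8.77% lower, beside 14.3% and 13.6% of all genes. The median difference was 0.28. Matn4, a matrilin that links matrix filaments, had 439 and 403 at E14.5 against 1.55 and 3.47 at E11.5 (4.82 ± 0.25), and Smoc1, a SPARC relative of basement membranes, had 2630 and 3001 at E14.5 against 189 and 152 at E11.5 (3.95 ± 0.15). The next largest rises were those of Ltbp3, which binds latent TGF-beta (2.15 ± 0.18), Col16a1 (2.04 ± 0.23), Colgalt2, which adds galactose to collagen (1.92 ± 0.43), and Plod1, a lysyl hydroxylase of collagen (1.88 ± 0.18). Plod1 had 335 and 328 at E14.5 against 80.6 and 81.1 at E11.5, and its groups lay far apart. Matn4 and Colgalt2 had E11.5 means below the added constant, which therefore sets how large their differences appear.

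The 5 genes of the wider list that were lower were Col26a1 (-1.78 ± 0.33), Col12a1 (-1.57 ± 0.40), Fras1, an anchor of epithelial basement membranes (-1.37 ± 0.27), the fibrillin Fbn2 (-1.23 ± 0.21) and P3h2, a prolyl hydroxylase that acts on collagen IV (-1.22 ± 0.36). Col26a1 had 18.04 and 11.85 at E14.5 against 93.73 and 70.9 at E11.5. Its E14.5 signals lie beside the added constant, so the size of its difference depends on that constant. Col26a1 and P3h2, the latter with an E14.5 mean of 26.9, passed the limit for testing through their E11.5 signals. Col12a1, found along collagen I fibrils, had 50.6 and 12.4 at E14.5 against 98.8 and 113 at E11.5. The gap between its E14.5 arrays was wide. The count of 5 became 8 when E11.5 replicate 2 was left out, and 9 when E14.5 replicate 1 was.

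**Figure D4:**
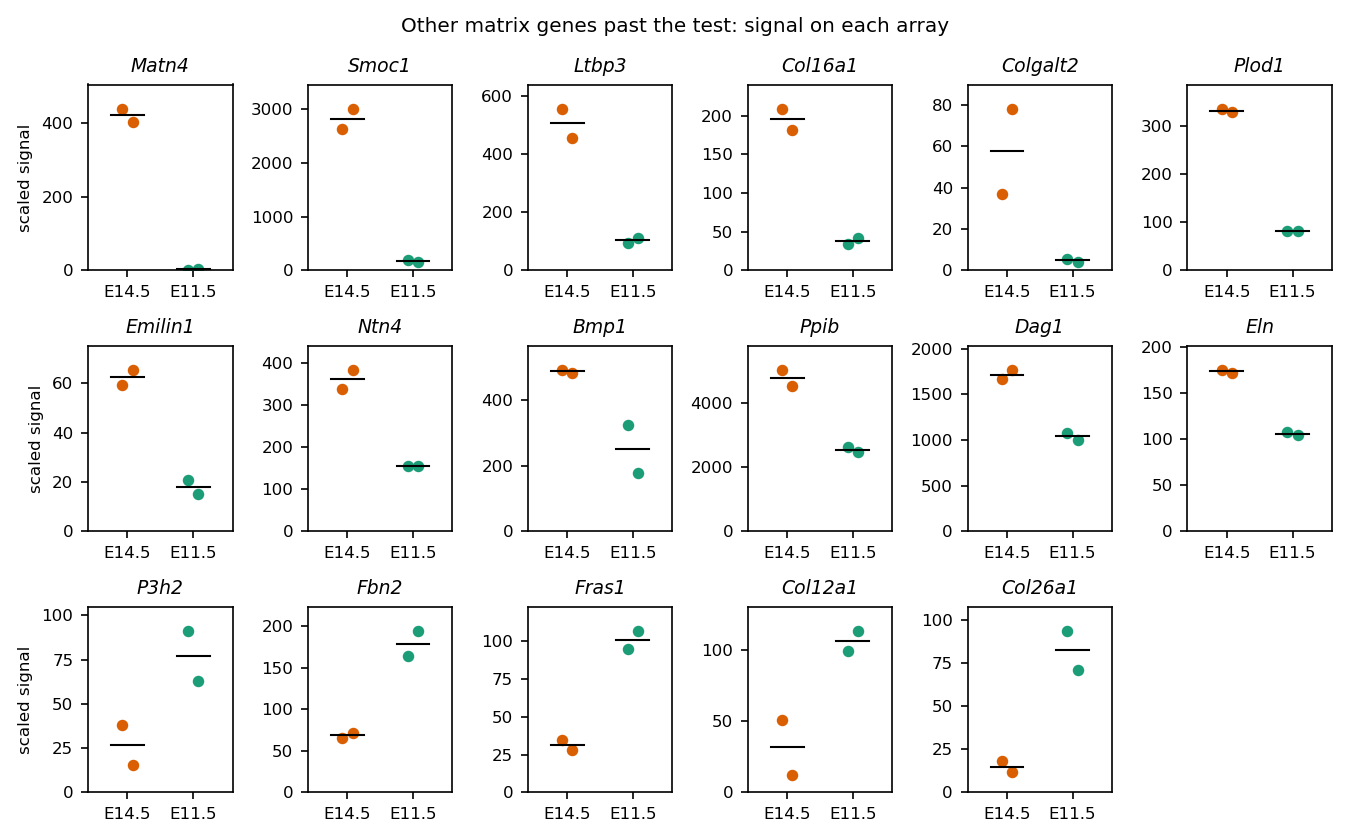
Scaled signal (vertical axis, linear, from 0) on each array for the 17 genes of the wider list past the test, ordered from the largest rise to the largest fall; dots are arrays and lines are group means, with E14.5 at the left of each panel. Matn4, Smoc1, Ltbp3, Col16a1, Colgalt2 and Plod1 lead the 12 rises, and Col26a1 ends the 5 falls.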

How the data were processed

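The authors deposited 1 linear intensity per probe set and array, made with GCOS, the array maker's software, according to the submitters' processing notes, which name no version. Of 45101 probe sets, 64 controls were set aside and 34945 had 1 gene in the platform annotation. Trimmed means differed by up to 2.43-fold, so each array was multiplied to a common 2% trimmed mean. Probe sets whose mean reached the 40th percentile (27.3) were tested, 27022 in all, and log2 was taken after adding 12.8, the 25th percentile of all scaled values. Differences were fitted with limma 3.58.1 in R 4.3.3 (lmFit and eBayes with a variance trend) over all 4 arrays, adjusted by Benjamini-Hochberg over all probe sets. The brightest tested probe set stands for a gene. The fit was tested on simulated data.

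All 42 genes are named, with up to 6 called genes of the wider list in each direction; marker genes were named where values bear on a result. Members and lists were chosen with earlier results of these data known. Lists got no test of their own. Nothing in the labels says that replicates came from separate cultures, so p-values measure only the spread between these arrays. The number of arrays limits the precision. Alternatives covered scaling, added constant, filter, variance model, probe sets, left-out arrays and a replicate block. No detection calls were used here.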

Additional observations from a re-analysis of the deposited data

How the results depend on the processing

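Of the 14 called matrix genes, all kept call and direction under quantile normalization, both other added constants and the replicate block, 13 without a filter, and 12 without the variance trend or with probe sets averaged. The stricter filter at the 60th percentile tested 13 of them, which all kept their calls. With values as deposited, where the median of all genes was -0.69, 2 matrix genes were higher and 14 lower with a median of -0.90, 4 and 11 genes of the wider list, and over the whole array 246 genes were higher and 2241 lower; 10 of the 14 calls remained, and Lama5, Agrn, Fbln2 and Col5a2 lost theirs. With that shift of all genes, signs turned for Lamb2 (-0.077), Col4a5 (-0.64), Col11a1 (-0.19), Col6a1 (-0.29), Col6a2 (-0.55), Col9a1 (-0.42), Dcn (-0.29), Bgn (-0.59), Sparc (-0.73), Thbs2 (-0.48), P4ha1 (-0.083) and Serpinh1 (-0.64), none of them called before. Without the variance trend the wider list had 3 genes lower, and the whole array 1150 higher and 1101 lower; with the filter at the 60th percentile, which tests fewer genes, the wider list had 2 lower. Sparc turned under quantile normalization (-0.0092), and Col4a5 (-0.052) and Mfap2 (0.091) with probe sets averaged. Averaging also brought new calls. Lamb2 (0.62, limma adjusted p = 0.024) and Col9a1 (0.75, adjusted p = 0.020) passed as higher. Nid1 (-0.61, adjusted p = 0.04996) and Thbs1 (-1.43, adjusted p = 0.021) passed as lower.

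Over left-out arrays, 5 to 7 matrix genes were higher and 10 to 12 lower, the median ran from -0.39 to 0.038, and the wider list had 10 to 12 higher and 4 to 9 lower. Over all genes, 1414 to 1926 were higher and 1454 to 1747 lower. Signs turned only for genes that were not called. Their lowest and highest values were -0.50 and 0.090 for Hspg2, -0.54 and 0.038 for Col4a1, -0.50 and 0.15 for Col4a2, -0.064 and 0.15 for Sparc, -0.31 and 0.48 for Thbs2, -0.70 and 0.27 for Lama2, -0.22 and 0.095 for Nid2, -0.025 and 0.23 for Col4a5, -0.79 and 1.48 for Col6a1 and -0.15 and 0.50 for Col6a2. They came from leaving out E11.5 replicate 1 (Hspg2, Col4a1, Col4a2), E11.5 replicate 2 (Sparc, Thbs2) or E14.5 replicate 1 (Lama2, Nid2, Hspg2, Col4a5, Col6a1, Col6a2, Sparc, Thbs2). The cause of these turns was not tested. With the replicate number as a block, 6 matrix genes were higher and 12 lower, the additions being Col1a1, Fbln1, Thbs1 and P4ha1. Deviations of same-numbered arrays were not correlated across probe sets (r = 0.0041). With 2 arrays per group this cannot show whether same-numbered arrays shared a culture or a batch, and the labels do not say.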
